A study of Mus musculus with 6 samples.

Results

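The genes described here encode the TGF-beta and BMP signalling system: ligands, receptors, SMAD proteins, extracellular and intracellular inhibitors, and the ID genes that BMP signalling switches on. They were taken by symbol from a list of 46 genes, all of which were found among the 40842 reference genes of the tables. Of these, 15 were placed in the TGF-beta arm (with the activins), 24 in the BMP arm and 7 were treated as shared. Whole lung of wild-type female C57BL/6N mice was profiled by polyA RNA sequencing. The control group had 3 untreated libraries (control 1 to 3) and the irradiated group had 3 libraries of lung taken 100 days after 1 dose of 20 Gy of 9 MeV electrons (irradiated 1 to 3). The controls carry the same 100 day label. The age of the mice, the exposed part of the body and whether each library is a separate mouse were not given in the labels, so p-values here speak of spread among 6 libraries that may be technical in part.

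Ligands of this family are secreted dimers that bring together type I and type II receptor kinases. TGF-beta and activin receptors phosphorylate SMAD2 and SMAD3, whereas BMP receptors phosphorylate SMAD1, SMAD5 and SMAD9, and both sets enter the nucleus with SMAD4. TGF-beta is secreted in a latent form held in the matrix and is best known in lung as a driver of fibrosis, while BMP signalling through BMPR2 and ALK1 maintains the pulmonary vessels.

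The libraries held about 5.11 to 10.4 Gb of aligned sequence, estimated from coverage, with irradiated 2 the deepest. Lung identity was clear from the markers, with Sftpc at 8741 to 16828 FPKM and Ager at 897 to 1265 FPKM over the 6 libraries. Control 2 had the highest summed cardiac (529 FPKM) and adipose (551 FPKM) markers, and irradiated 2 had the lowest (20.3 and 8.26 FPKM). Irradiated 2 also had the highest neutrophil (4772 FPKM) and red cell (5908 FPKM) marker sums. In whole tissue, fewer cells of a type and less RNA per cell cannot be told apart.

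No pathway gene passed the test. A gene was called at a limma adjusted p under 0.05 over the 13908 genes averaging 1 FPKM or more, and 0 of the 41 members above this minimum were called, against 0.180% of all genes tested. Log2 changes are given as irradiated minus control after adding 1 FPKM before the logarithm, so changes of genes at low levels are understated. At an unadjusted p under 0.05 stood 10 of the 41 members, with 8 lower in irradiated lung (19.5%, against 10.3% of all genes tested) and 2 higher (4.88%, against 7.41%), while in either direction the share was 24.4% against 17.7%. The 8 were Tgfb2, Tgfb3, Bmp3, Bmp5, Bmp6, Smad9, Id3 and Bambi, and the 2 were Tgfbr3 and Fst. In the same 10 genes the 3 irradiated libraries lay wholly below or wholly above the 3 controls, as they did above them in the untested Inhba. The background for such separation was 14.6% of all genes below and 9.91% above.

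The 2 arms are set side by side here. In the BMP arm 19 of 20 tested members had negative log2 changes, with a median of −0.23, whereas in the TGF-beta arm 6 of 14 did, with a median of 0.02. Over all genes tested 55.8% had negative changes and the median was −0.03. The count in the BMP arm depended on scaling: with FPKM rescaled to a common sum 12 of 20 members were negative, and with median-ratio scaling 16 of 20, although the median of the arm stayed below 0 under both (−0.13 and −0.20). Rescaling to a common sum moved the median of all genes by 0.11, so that 35.9% of them were negative. The FPKM sums ran from 321039 to 350820 in controls and from 298352 to 312652 after irradiation. The rescaling therefore raised irradiated values relative to the controls. Very abundant epithelial genes weigh heavily in these sums. Scgb1a1 averaged 37615 FPKM in controls and 21418 FPKM after irradiation, and Sftpc 15497 and 9048 FPKM. The median of the BMP arm lay 0.25 below that of the TGF-beta arm as deposited and 0.27 below it after the rescaling. Without control 2 and irradiated 2 the count was 15 of 20 and the distance 0.30. The place of 6 genes in an arm is open to choice (Fst, Fstl1, Gdf10, Bmp3, Tgfbr3 and Eng), and without them 15 of 16 BMP arm members and 6 of 12 TGF-beta arm members were negative, with medians of −0.23 and −0.03. The arms also hold unlike roles. The BMP arm includes the targets Id1, Id2 and Id3 and the inhibitory Smad6, whereas the TGF-beta arm has no targets but holds Ltbp1 and Ltbp3. Both arms count antagonists together with ligands, so their medians do not measure the activity of an arm. These counts are descriptions, and no test of the arms as sets was made.

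**Figure D1:**
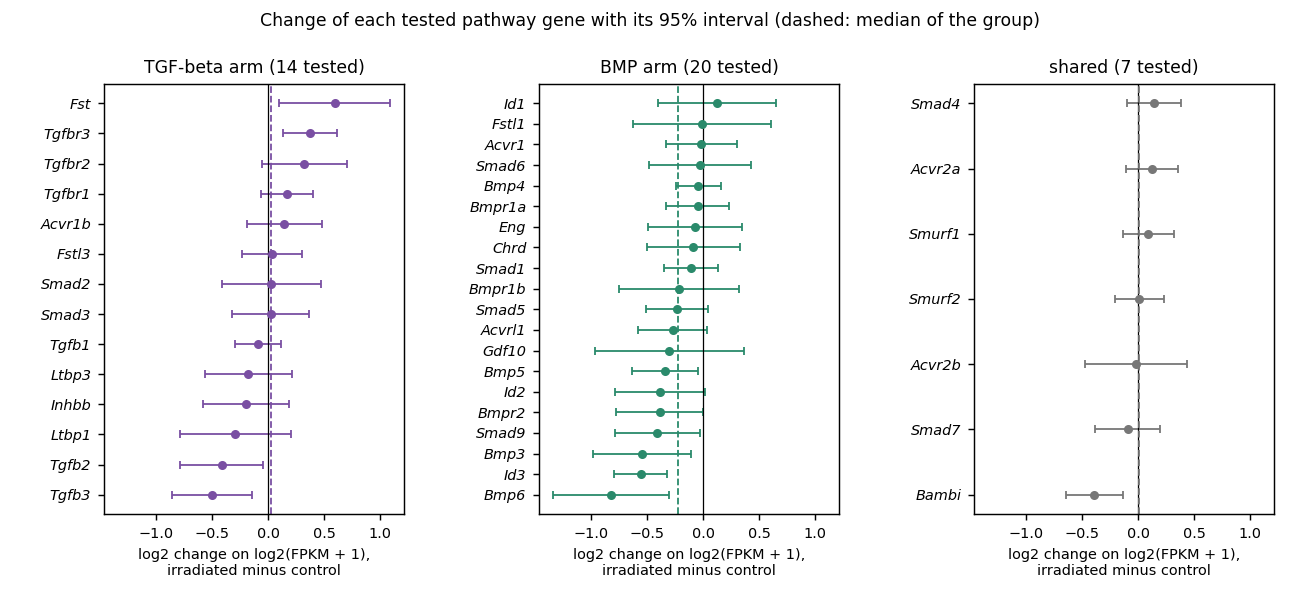
Log2 change (irradiated minus control, on log2(FPKM + 1)) of each of the 41 tested genes with its 95% interval from limma, in 3 panels by arm, with a dashed line at the median of each. Of the 20 BMP arm genes 19 sit left of 0 (12 after rescaling to a common sum, not drawn), and the TGF-beta arm spreads to both sides with receptors on the right and ligands on the left.

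Levels varied widely among the 46 genes. The BMP receptors Acvrl1 (ALK1, a type I receptor of endothelium) and Eng (endoglin, its co-receptor) had the highest means of all members, 120 and 113 FPKM over the 6 libraries, followed by the target genes Id3 (96.6 FPKM) and Id1 (68.9 FPKM). Tgfbr2, the type II receptor of TGF-beta, was the highest member of the TGF-beta arm at 64.3 FPKM. At the low end Grem1 and Nog, which encode secreted BMP antagonists, had means of 0.0939 and 0.207 FPKM, and with Inhba, Bmp2 and Bmp7 they made up the 5 members below the minimum of the test.

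**Figure D2:**
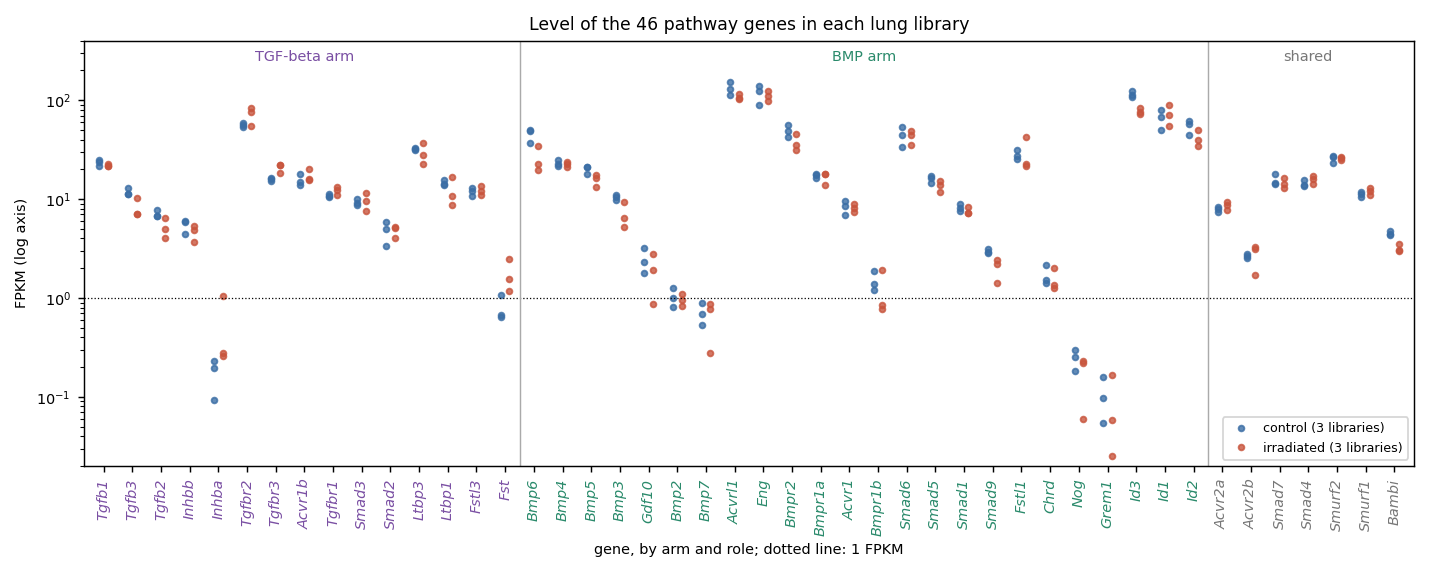
FPKM (log axis) of all 46 genes in each of the 6 libraries, ordered by arm and role, with controls in blue, irradiated libraries in red and a dotted line at 1 FPKM. Acvrl1 and Eng lie near the top and Grem1, Nog and Inhba near the bottom in both groups.

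All 4 tested ligands of the TGF-beta arm had negative log2 changes (3 of 4, without Tgfb1, at a common sum), and those of Tgfb2 and Tgfb3 were the largest. Tgfb1, the main isoform of inflamed and scarred tissue, measured 25.0, 21.5 and 23.9 FPKM across controls and 21.7, 22.5 and 21.7 FPKM across irradiated libraries. The groups overlapped, and the log2 change was −0.09 ± 0.09 (SE) with a 95% interval of −0.29 to 0.11. With FPKM rescaled to a common sum the Tgfb1 change was 0.035.

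Tgfb3, an isoform with roles in palate and lung development, had control values of 11.3, 13.0 and 11.2 FPKM and irradiated values of 10.3, 7.04 and 7.14 FPKM. All 3 irradiated values were below the controls, and irradiated 1 was close to them. The log2 change of Tgfb3 was −0.51 ± 0.15 (limma adjusted p = 0.175).

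Tgfb2 had the same order among the irradiated libraries, with 6.71, 7.77 and 6.80 FPKM in controls and 6.45, 4.01 and 4.93 FPKM in irradiated libraries. Its log2 change was −0.42 ± 0.16 (limma adjusted p = 0.242). Without irradiated 2 it was −0.28, and without control 2 and irradiated 2 it was −0.22. Markers of mesothelium, the outer lining of the lung, also had their highest irradiated level in irradiated 1: the 6 genes summed to 227 to 405 FPKM in the controls and to 214, 130 and 164 FPKM in irradiated 1 to 3. Krt19 made up the largest part of these irradiated sums, at 99.6, 69.8 and 95.3 FPKM, and its groups overlapped. The order was not particular to mesothelium. Irradiated 1 was also highest and irradiated 2 lowest for summed adventitial fibroblast markers (203, 93.5 and 144 FPKM). Smooth muscle and pericyte markers (240, 212 and 218 FPKM) and adipose markers (252, 8.26 and 137 FPKM) shared this order. In these further lists the irradiated range overlapped that of the controls. The part of these cell types in the Tgfb2 and Tgfb3 values was not tested.

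The activin subunits were at low levels. Inhbb, the beta B subunit, was at 5.44 ± 0.889 FPKM (SD, n = 3) in controls and 4.63 ± 0.876 FPKM in irradiated lung, a log2 change of −0.20 ± 0.16. Inhba, the beta A subunit, was below the minimum and was not tested, with control values of 0.195, 0.232 and 0.0929 FPKM against 1.05, 0.261 and 0.281 FPKM after irradiation. The irradiated values were all above the controls, and irradiated 1 stood apart from the others.

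All 4 receptors of the TGF-beta arm had positive log2 changes, from 0.14 to 0.37, and all 4 stayed positive under the 3 other scalings. Tgfbr2 and Tgfbr3 were also positive in all 15 other settings. Tgfbr3 (betaglycan), a co-receptor that presents TGF-beta2 to the signalling receptors and also binds inhibins, gave 16.1, 16.4 and 15.1 FPKM without irradiation and 18.2, 22.2 and 22.3 FPKM with it. The groups did not overlap, with the highest values in irradiated 2 and 3. Its log2 change was 0.37 ± 0.10 (limma adjusted p = 0.155), and over the other settings the adjusted p ran from 0.0756 to 0.461.

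Tgfbr2 measured 53.9, 56.7 and 58.9 FPKM across controls and 84.3, 55.2 and 76.6 FPKM across irradiated libraries. Irradiated 1 and 3 were above every control and irradiated 2 was within their range, and the 95% interval of the change of 0.32 ± 0.16 ran from −0.06 to 0.70 (limma adjusted p = 0.344). The change was 0.20 without irradiated 1 and 0.50 without irradiated 2. Tgfbr1, the type I receptor ALK5, had a log2 change of 0.17 ± 0.10 from 10.8 ± 0.423 FPKM in controls. Acvr1b, the activin type I receptor ALK4, had one of 0.14 ± 0.14 from 15.6 ± 2.28 FPKM.

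Ltbp1 and Ltbp3, which encode proteins that hold TGF-beta latent in the matrix, were highest in irradiated 1 and lowest in irradiated 3. Ltbp3 had control values of 33.1, 32.4 and 31.7 FPKM and irradiated values of 36.7, 28.0 and 22.5 FPKM, with a log2 change of −0.18 ± 0.17, which was −0.35 without irradiated 1 and −0.01 without irradiated 3. Ltbp1 had the same order, with 16.6, 10.9 and 8.74 FPKM in irradiated 1 to 3 against 14.5 ± 0.913 FPKM in controls. The irradiated group lay on both sides of the controls for both genes. Ltbp4, a more abundant relative outside the list of members, was named after its values were seen and did not share this order. Its control values were 120, 115 and 100.3 FPKM and its irradiated values 91.2, 95.1 and 91.4 FPKM (−0.27 ± 0.10, limma adjusted p = 0.241), with every irradiated library below the controls.

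Follistatin (Fst), which binds and neutralises activins and some BMPs, gave 0.667, 1.07 and 0.641 FPKM without irradiation and 1.18, 1.56 and 2.50 FPKM with it. The groups did not overlap, and irradiated 3 was the highest. Its log2 change was 0.60 ± 0.21 (limma adjusted p = 0.220), the largest positive change among the tested members, at a level close to the minimum of the test. With a pseudocount of 0.1 FPKM it was 1.02. The related activin inhibitor Fstl3 had overlapping groups, at 11.9 ± 1.15 and 12.2 ± 1.34 FPKM (log2 change 0.04, 95% interval −0.23 to 0.30).

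**Figure D3:**
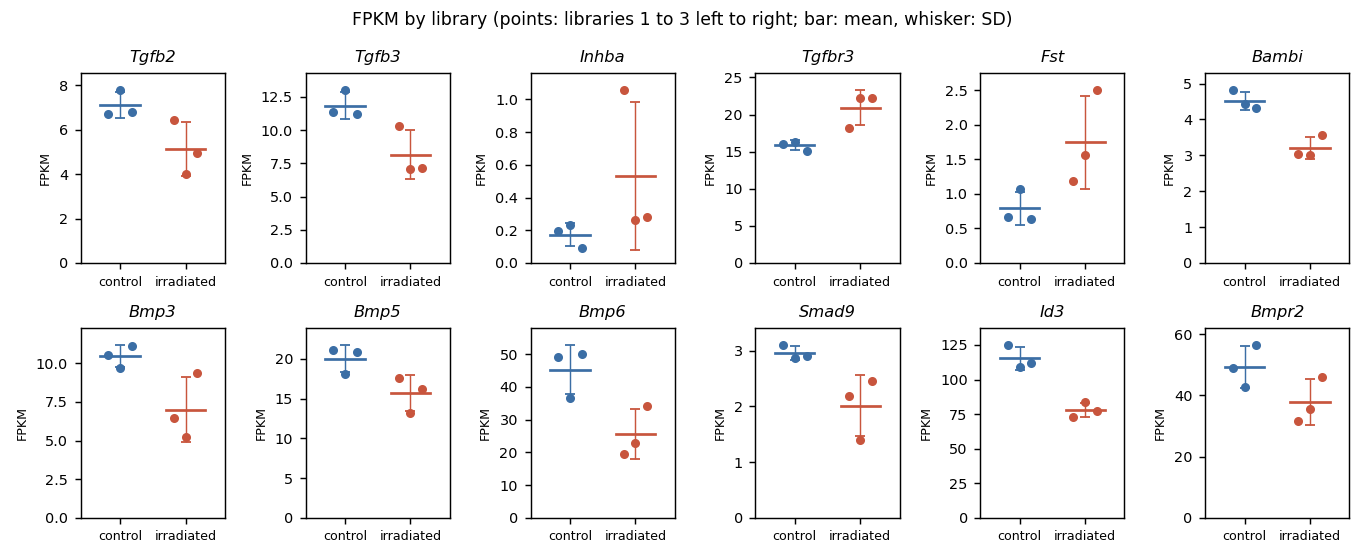
FPKM by library for 12 pathway genes, with a point per library (1 to 3 from left to right), a bar at the mean and a whisker of 1 SD. In 11 of them the groups do not overlap, and Bmpr2 is shown as the member whose unadjusted p of 0.0505 fell just outside 0.05.

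All 5 tested BMP ligands had negative log2 changes, and 4 of 5, without Bmp4, did at a common sum. Bmp6, a BMP that also controls iron balance through the hepcidin gene, was the most abundant of them and had the largest change of the tested members with 1 FPKM added before the logarithm. With 0.1 FPKM added the change of Fst was larger, at 1.02 against −0.85 for Bmp6. Bmp6 measured 49.0, 36.6 and 50.0 FPKM across controls and 19.6, 22.8 and 34.2 FPKM across irradiated libraries. The highest irradiated library was below the lowest control, and the group mean was 0.565 of that in controls. The log2 change of Bmp6 was −0.82 ± 0.22 (limma adjusted p = 0.146), and over the other settings it ran from −1.05 to −0.66 with adjusted p from 0.0543 to 0.363. Bmp6 overlaps Txndc5 on the opposite strand, at 55.7 to 68.1 FPKM in controls and 42.3 to 63.0 FPKM after irradiation. The strand setting was not given in the sources used here, so reads in the shared part cannot be told apart.

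Bmp3, an atypical member that opposes other BMPs, had control values of 10.5, 9.71 and 11.1 FPKM and irradiated values of 6.47, 5.21 and 9.35 FPKM. Irradiated 3 came close to the lowest control. Its log2 change was −0.55 ± 0.19 (limma adjusted p = 0.208).

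Bmp5, a ligand expressed by lung mesenchyme, gave 21.1, 18.1 and 20.9 FPKM without irradiation and 17.6, 13.2 and 16.2 FPKM with it. The groups were separated by a narrow gap between control 2 and irradiated 1. Its log2 change was −0.34 ± 0.12 (limma adjusted p = 0.232), and −0.22 at a common sum.

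Bmp4, a ligand of lung development and of vessels, had overlapping groups, at 23.1 ± 1.53 and 22.4 ± 1.12 FPKM, and the 95% interval of its log2 change was −0.25 to 0.16. Gdf10, a close relative of Bmp3, had a change of −0.30 ± 0.28, with 0.875 FPKM in irradiated 2 and 1.79 to 3.17 FPKM in the other libraries. Bmp2 and Bmp7 were below the minimum, at 0.815 to 1.25 and 0.276 to 0.899 FPKM over the 6 libraries, and were not tested.

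All 6 BMP receptors had negative log2 changes, from −0.39 to −0.01, but 3 of them (Acvr1, Bmpr1a and Eng) turned positive at a common sum, and Acvr1 also under the other scalings. None reached an unadjusted p of 0.05. Bmpr2, the type II receptor mutated in hereditary pulmonary arterial hypertension, was chosen for description after its values were seen. It measured 48.9, 42.7 and 56.3 FPKM across controls and 31.5, 35.5 and 46.04 FPKM across irradiated libraries. Irradiated 1 and 2 lay below every control and irradiated 3 lay within their range, with a log2 change of −0.39 ± 0.16 (limma adjusted p = 0.282).

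Acvrl1 had control values of 152, 113 and 131 FPKM and irradiated values of 106, 116 and 104 FPKM. The groups overlapped through control 2 and irradiated 2, and the log2 change was −0.27 ± 0.13 (limma adjusted p = 0.326). It was −0.17 without control 1, −0.14 at a common sum and −0.43 without control 2 and irradiated 2. Eng had a change of −0.07 ± 0.18, with 117 ± 24.7 FPKM in controls and 110 ± 12.6 FPKM in irradiated lung. The remaining type I receptors Bmpr1a (17.2 ± 0.788 FPKM in controls), Bmpr1b (1.49 ± 0.341 FPKM) and Acvr1 (8.31 ± 1.38 FPKM) had changes of −0.05, −0.22 and −0.01. Bmpr1b overlaps Unc5c on the opposite strand, which had a log2 change of −0.58. Markers shared by all endothelium summed to 810 to 1051 FPKM in controls and 700 to 890 FPKM after irradiation. Those of general capillary cells summed to 388 to 536 and 286 to 398 FPKM, with 5 of 6 changes negative, and Aplnr alone was called. Of the 9 shared markers 7 had negative changes (5 at a common sum), from −1.22 for Tek, at 67.3 ± 9.44 and 28.8 ± 7.68 FPKM (limma adjusted p = 0.0700), to 0.06 for Robo4, and Pecam1 was at 174 ± 15.8 and 177 ± 30.8 FPKM. Markers of aerocytes, the other capillary cells of the alveoli, had 6 of 6 positive changes and summed to 256 to 294 FPKM in controls and 289.5 to 389.7 FPKM after irradiation. The part of these cells in the receptor values was not tested.

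The SMAD proteins that carry the BMP signal all had negative log2 changes, from −0.41 to −0.02 with the inhibitory Smad6 counted, but Smad1 and Smad6 turned positive at a common sum. Smad9, the least abundant of them, gave 3.10, 2.87 and 2.90 FPKM without irradiation and 2.19, 1.40 and 2.45 FPKM with it. All 3 irradiated libraries were below the tight range of the controls, with a log2 change of −0.41 ± 0.16 (limma adjusted p = 0.255). Without irradiated 2 it was −0.25. Smad5 and Smad1 had changes of −0.23 ± 0.12 and −0.11 ± 0.10.

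Smad2 and Smad3, which carry the TGF-beta signal, had changes of 0.03 ± 0.19 and 0.02 ± 0.15. Smad3 measured 10.1, 9.11 and 8.74 FPKM across controls and 9.68, 7.57 and 11.5 FPKM across irradiated libraries, and the irradiated libraries bracketed the controls. The common partner Smad4 had a change of 0.14 ± 0.10, from 14.3 ± 1.11 to 15.8 ± 1.46 FPKM.

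Among the shared inhibitors Bambi stood apart, since the groups of the others overlapped. Bambi, a receptor without a kinase that blocks signalling by TGF-beta, activin and BMP receptors, had control values of 4.81, 4.43 and 4.32 FPKM and irradiated values of 3.04, 3.02 and 3.56 FPKM. Every irradiated library was below every control and both groups were tight, with a log2 change of −0.39 ± 0.11 (limma adjusted p = 0.155).

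Smad6, which preferentially blocks BMP receptors, gave 53.7, 33.5 and 44.6 FPKM without irradiation and 35.5, 48.6 and 44.2 FPKM with it, and its groups overlapped fully. Smad7, which blocks both arms, was at 17.9, 14.3 and 14.7 FPKM and then 13.1, 16.4 and 14.2 FPKM, with a log2 change of −0.09 ± 0.12. Changes of the ubiquitin ligases Smurf1 and Smurf2, which mark receptors and SMADs for degradation, were 0.09 ± 0.10 and 0.01 ± 0.09. Smurf2 measured 26.7, 23.3 and 27.5 FPKM across controls and 26.3, 26.9 and 24.7 FPKM across irradiated libraries. The shared type II receptors Acvr2a and Acvr2b had changes of 0.13 ± 0.10 and −0.02 ± 0.19. Acvr2a was at 8.24, 7.42 and 7.95 FPKM and then 8.78, 7.84 and 9.46 FPKM.

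Of the secreted BMP antagonists in the list, Fstl1, a follistatin-like glycoprotein of mesenchyme that binds BMP4, was by far the most abundant. It had control values of 25.4, 31.3 and 27.0 FPKM and irradiated values of 42.9, 21.6 and 22.4 FPKM, with irradiated 1 above and irradiated 2 and 3 below every control. Its mean change was −0.01 ± 0.26, and the sign turned under 7 of 15 other settings. Chrd (chordin) was at 1.70 ± 0.390 and 1.55 ± 0.418 FPKM, and Nog and Grem1 were not tested.

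**Figure D4:**
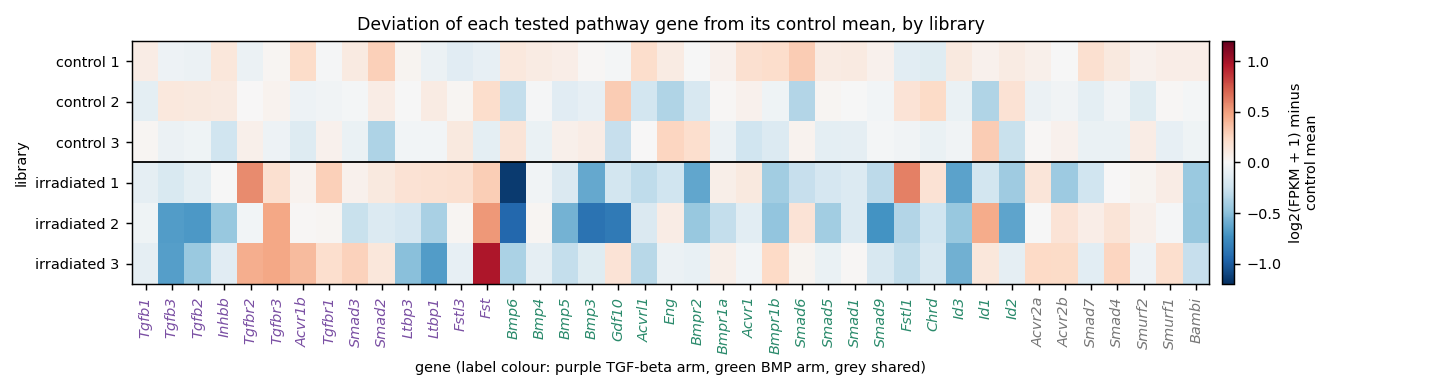
Deviation of log2(FPKM + 1) from the control mean for the 41 tested genes (columns, by arm) in the 6 libraries (rows), with red above and blue below the control mean. Bmp6, Bmp3, Bmp5, Id3 and Bambi are blue in all 3 irradiated rows, and irradiated 1 differs from irradiated 2 and 3 for Tgfb2, Tgfb3, Ltbp1, Ltbp3 and Fstl1.

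The ID genes encode inhibitors of basic helix-loop-helix transcription factors and are direct targets of SMAD1, SMAD5 and SMAD9. The signs of their log2 changes differed, but the interval of Id1, given below, was wide and included both signs. Id3 gave 125, 109 and 112 FPKM without irradiation and 73.2, 83.8 and 77.0 FPKM with it. The gap between the groups was wider than the range within either, and the mean was 0.676 of that in controls. Its log2 change of −0.56 ± 0.10 (95% interval −0.79 to −0.32) had the smallest p of all members (limma adjusted p = 0.0793). Over the other settings the adjusted p ran from 0.0685 to 0.325, and the change from −0.65 to −0.43.

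Id2 and Id1 were chosen for description after their values were seen. Id2 measured 58.2, 61.3 and 45.1 FPKM across controls and 40.1, 34.8 and 50.5 FPKM across irradiated libraries, and irradiated 3 lay above control 3. Its log2 change was −0.39 ± 0.17 (limma adjusted p = 0.298). Id1 was at 67.4, 50.4 and 80.1 FPKM and then 55.5, 88.8 and 71.2 FPKM, with the highest value of all in irradiated 2. Its log2 change of 0.12 ± 0.22 was the single positive one in the BMP arm as deposited. The 95% interval of −0.41 to 0.65 leaves the direction of Id1 open.

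The DNA in front of Id3, Id2 and Bmp6 is shown because Id3 and Id2 are the ID genes with an entry in the RefSeq promoter table, and Bmp6 had the largest log2 change of the tested ligands. The table (build GRCm38.p6) held 39 entries for 33 of the 46 members. The 250 bases before the start of each gene are given 5′ to 3′ on the strand of the gene. Capitals mark CAGAC or its reverse complement GTCTG, a form of the SMAD binding element, and the palindrome GGCGCC, a GC-rich form bound by BMP SMADs.
Id3, chr4:136143572-136143821, plus strand: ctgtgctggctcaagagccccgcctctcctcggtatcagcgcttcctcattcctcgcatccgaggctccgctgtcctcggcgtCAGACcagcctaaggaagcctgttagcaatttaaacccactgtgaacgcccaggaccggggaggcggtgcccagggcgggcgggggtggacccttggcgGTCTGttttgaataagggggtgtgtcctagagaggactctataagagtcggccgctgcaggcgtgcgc
Id2, chr12:25096093-25096342, minus strand: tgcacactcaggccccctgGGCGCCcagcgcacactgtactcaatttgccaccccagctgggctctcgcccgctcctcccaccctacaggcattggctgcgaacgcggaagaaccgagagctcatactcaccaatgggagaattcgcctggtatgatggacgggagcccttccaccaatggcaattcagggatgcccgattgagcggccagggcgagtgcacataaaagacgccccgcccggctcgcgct
Bmp6, chr13:38345466-38345715, plus strand: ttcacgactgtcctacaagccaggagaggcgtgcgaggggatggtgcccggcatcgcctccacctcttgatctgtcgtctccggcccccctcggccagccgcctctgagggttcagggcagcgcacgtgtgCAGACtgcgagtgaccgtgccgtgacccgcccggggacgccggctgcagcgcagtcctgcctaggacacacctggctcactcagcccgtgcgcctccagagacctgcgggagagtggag
The window of Id3 held 2 matches to CAGAC or GTCTG, that of Bmp6 held 1 and that of Id2 held 0. Id2 held 1 match to GGCGCC, and Id3 and Bmp6 held 0. These letters are common: 42.2% of all 32851 promoter windows of this length held CAGAC or GTCTG and 9.59% held GGCGCC, on either strand. Among the entries of the members the shares were 51.3% and 23.1%. Some members had more than 1 entry and GC content was not matched, so these shares are not a test of enrichment. A match is a description of the letters and not a measured site.

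Transcripts known to be induced by each arm were read beside the members. The lists were chosen for their known regulation, but with earlier results of these data known. Their shares are therefore descriptions and not an independent check. Of 17 transcripts induced by TGF-beta, 17 were tested and 0 were called. At an unadjusted p under 0.05, 3 were higher (17.6%, against 7.41% of all genes tested) and 0 lower (against 10.3%). In either direction the share was 17.6% against 17.7%. The median log2 change was 0.03. Ccn2, a matricellular growth factor of fibroblasts and endothelium, had control values of 39.1, 40.6 and 81.0 FPKM and irradiated values of 126, 131 and 86.9 FPKM. The groups did not overlap, although control 3 came close to irradiated 3 (log2 change 1.15 ± 0.31, limma adjusted p = 0.153). Tgfbi, a secreted matrix protein, was at 23.2, 23.6 and 22.2 FPKM and then 30.5, 55.7 and 48.4 FPKM (0.89 ± 0.21, limma adjusted p = 0.118).

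Fibronectin (Fn1) was at 40.9 ± 6.22 and 75.8 ± 29.9 FPKM (0.81 ± 0.29, limma adjusted p = 0.232), with irradiated 1 the highest at 106 FPKM. Col1a1, a collagen gene of the same list named after its values were seen, had control values of 30.8, 34.8 and 26.0 FPKM. Irradiated 1 was above them at 53.9 FPKM and irradiated 2 and 3 were below them at 17.8 and 11.4 FPKM. Markers of interstitial macrophages and monocytes, cells that can express Tgfbi and Fn1, summed to 169 to 205 FPKM in controls and 313 to 335 FPKM after irradiation, with 8 of 8 positive changes and none at 0. Lyve1 made up the largest part of this sum, at 88.2 ± 16.1 FPKM (SD) in controls and 191 ± 26.8 FPKM after irradiation. The gap between the sums therefore mostly follows this gene, and the sum does not measure the amount of these cells. The groups overlapped for C1qa, C1qb, C1qc and Cx3cr1. The part of these cells in the Tgfbi and Fn1 values was not tested.

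Of 11 transcripts induced by BMP 9 were tested, 0 were called, and 2 were lower at an unadjusted p under 0.05 (22.2%, against 10.3% of all genes tested) with 0 higher (against 7.41%). In either direction the share was 22.2% against 17.7%. The median log2 change was −0.20, and 8 of 9 changes were negative (7 at a common sum). Hey1, a repressor that both Notch and BMP induce in endothelium, gave 34.2, 34.8 and 30.3 FPKM without irradiation and 15.3, 21.8 and 23.7 FPKM with it. Every irradiated library was below the controls (−0.70 ± 0.16, limma adjusted p = 0.115). Tmem100, a membrane protein of endothelium induced through ALK1, was at 236, 186 and 245 FPKM and then 138, 167 and 145 FPKM (−0.56 ± 0.14, limma adjusted p = 0.131).

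Hes1, better known as a Notch target, was at 47.9 ± 13.3 and 33.5 ± 5.47 FPKM with overlapping groups (limma adjusted p = 0.306). Runx2, a transcription factor of bone, was at 1.20 ± 0.181 and 1.72 ± 0.167 FPKM and had the single positive change in this list as deposited (0.31 ± 0.13, limma adjusted p = 0.294). In the BMP list the groups did not overlap for 4 genes below (44.4%, against 14.6% of all genes tested) and 1 above (11.1%, against 9.91%).

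**Figure D5:**
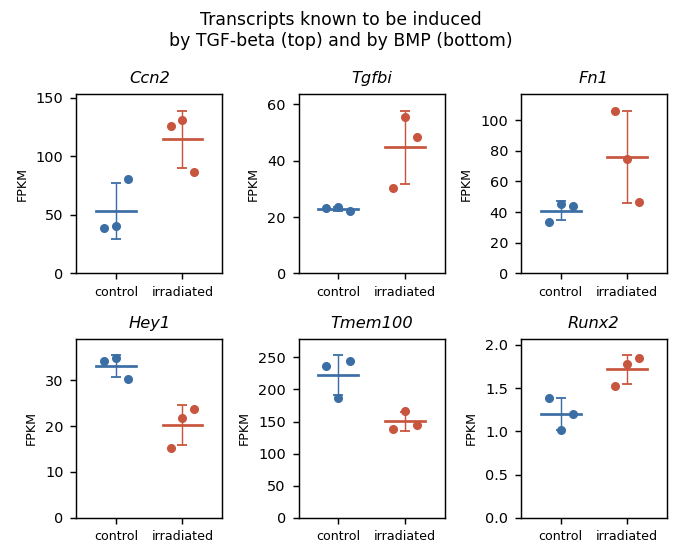
FPKM by library for 3 transcripts of the TGF-beta list (top row) and 3 of the BMP list (bottom row), with a point per library, a bar at the mean and a whisker of 1 SD. Ccn2, Tgfbi and Fn1 are higher in all irradiated libraries than in any control, as is Runx2, and Hey1 and Tmem100 are lower.

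A further list of 52 pathway genes held extra ligands, antagonists, activators and co-regulators. Of these, 34 were tested, 0 were called, 2 were higher (5.88%, against 7.41% of all genes tested) and 5 lower (14.7%, against 10.3%) at an unadjusted p under 0.05. The median log2 change was −0.04 (0.09 at a common sum). Chrdl1, a chordin-like BMP antagonist, measured 5.71, 6.48 and 7.17 FPKM across controls and 3.27, 4.34 and 3.74 FPKM across irradiated libraries (−0.64 ± 0.13, limma adjusted p = 0.0881). Every irradiated library was below every control for Chrdl1.

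Tll1, a protease that can cleave chordin, was at 1.55 ± 0.175 and 0.727 ± 0.243 FPKM (−0.57 ± 0.16, limma adjusted p = 0.159). Ltbp2, a matrix protein of the latent TGF-beta binding family that does not itself bind the latent cytokine, was higher in every irradiated library, at 13.7 to 19.8 FPKM against 9.92 to 13.0 FPKM in controls (0.53 ± 0.15, limma adjusted p = 0.171). Gdf2, which encodes BMP9, the main ligand of ALK1, was below the minimum and was not tested. It was chosen for mention after its values were seen, with control values of 0.806, 1.42 and 0.865 FPKM against 0.580, 0.122 and 0.165 FPKM after irradiation, so that all irradiated libraries were lower. Bmp10, which encodes the other ALK1 ligand, was listed at 0 in all 6 libraries.

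Alveolar fibroblast markers, whose cells express several of the ligands and antagonists above, had 7 of 8 negative changes with a median of −0.55. Scn7a was the one called member. Their sum was 1521 to 1754 FPKM in controls and 931 to 1714 FPKM after irradiation, with none at 0 and with Inmt making up most of it. Neutrophil markers had 8 of 8 positive changes, with 0 at an unadjusted p under 0.05. Their sum was 76.4 to 506 FPKM in controls and 221 to 4772 FPKM in irradiated lung. The group ranges overlapped for both sums. How far differences in cell markers enter the pathway values was not tested. The loci of the members with the smallest p are, in GRCm39 coordinates of the files, chromosome 4, 135871133 to 135872703, for Id3, and chromosome 13, 38529692 to 38684290, for Bmp6. Each value is for the whole gene, with no separation of exons.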

How the data were processed

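PolyA RNA of whole lung was sequenced on a DNBSEQ-T7 after TRIzol extraction, per the labels' protocols. Tools and build per the submitters' processing notes, without roles, are STAR 2.7.6a, fastp, DESeq2 and GRCm39. The authors deposited 1 table per library with the coverage signal and FPKM of each gene, per the file headers. The tool that wrote the tables is not given in the sources used here. Repeated entries of a gene were summed, and genes assembled without a reference name were left out of the fit. Coverage served to estimate depth alone. Read counts were not used, so no counting error is attached.

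Genes averaging 1 FPKM or more were fitted with limma 3.58.1 (R 4.3.3, mean-variance trend, robust variance) on log2(FPKM + 1), with group as the term, and Benjamini-Hochberg adjustment over all 13908 genes. The fit was also run on simulated libraries with independent noise in each gene. Shifts shared by many genes of a library were not simulated, and no result here rests on that run. Other settings were a pseudocount of 0.1, a minimum of 5 FPKM, no filter, 3 rescalings, no trend, a replicate block and libraries left out. Tables were made with Python 3.11.15 and pandas 2.3.3. The members and lists were chosen with earlier results of these data known. Described in full were members at an unadjusted p under 0.05, members whose groups did not overlap and the most abundant member of each role. In other lists the called genes, or else up to 4 with the smallest p, were named. Not every gene that this rule names is reported here.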

Additional observations from a re-analysis of the deposited data

How the results depend on the processing

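In 0 of 15 other settings was any pathway gene called. The count of all genes called (25) was 13 with FPKM rescaled to a common sum, 11 with median-ratio scaling, 38 with a minimum of 5 FPKM, 0 without a filter (3531 at an unadjusted p under 0.05) and 9 without control 2 and irradiated 2, a setting chosen after seeing the data. Leaving out 1 library at a time it ran from 0 (without control 1 or control 3, with 1905 and 1650 at an unadjusted p under 0.05) to 116 (without irradiated 3), with 1 without control 2, 3 without irradiated 2 and 100 without irradiated 1. The split of higher against lower calls was 9 to 16 as deposited and 7 to 6 at a common sum.

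Members at an unadjusted p under 0.05 (10) numbered 6 without control 2 and irradiated 2, and 5 to 12 when 1 library was left out, with 5 without control 1 and 6 without control 3. The median of the BMP arm was −0.10 without a filter, and that of the TGF-beta arm 0.14 at a common sum. The distance between the arms (−0.25) was −0.14 with a minimum of 5 FPKM and −0.13 without a filter. The BMP arm had 12 negative members at a common sum.

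Of the 21 members followed through the settings, 7 turned sign, and each was within 0.10 of 0 as deposited. At a common sum Fstl1 was at 0.11, Smad6 at 0.10, Smad7 at 0.028 and Tgfb1 at 0.035. With median-ratio scaling Fstl1 was at 0.028 and Smad6 at 0.017, and with upper-quartile scaling Fstl1 at 0.0028. Without control 2 and irradiated 2 Fstl1 was at 0.24 and Smurf2 at −0.085. Leaving out 1 library turned Fstl1 (−0.32 to 0.15), Fstl3 (−0.039 to 0.11), Smad3 (−0.11 to 0.16), Smad6 (−0.20 to 0.13), Smad7 (−0.18 to 0.0022) and Smurf2 (−0.060 to 0.057). The cause was not tested.

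With the replicate number as a block 0 genes were called (1623 at an unadjusted p under 0.05), and 9 members stood at an unadjusted p under 0.05. Deviations of same-numbered libraries from their group means correlated at −0.17, −0.54 and −0.28 over 13908 genes. With 3 libraries in each group these values cannot show whether the numbers pair the libraries.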

Other observations

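Beside the reference genes, each table lists genes assembled from that library alone, which give a second estimate for a member where an assembled gene lies on its strand. Of 276 pairs of member and library 272 had such a gene, and in 255 both FPKM agreed within 10%. Inhba was the member with the widest gap. Its assembled value in irradiated 1 was 2.12 FPKM against 1.05 FPKM for the reference gene, and irradiated 1 was the highest library by both. The assembled value was 0.518 FPKM in control 2, beside 0.519 and 0.521 FPKM in irradiated 2 and 3. By this estimate the groups of Inhba were barely apart outside irradiated 1. For Smad2 the estimate in control 3 was 5.31 FPKM against 3.36 FPKM, and for Acvr2b in irradiated 1 it was 3.08 FPKM against 1.71 FPKM. In both cases the assembled value lay closer to those of the other libraries of the group. For Smad9 in irradiated 2 it was 2.06 FPKM against 1.40 FPKM, still below the controls. Which estimate is nearer to the transcript level was not tested.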
